A study of Saccharomyces cerevisiae with 15 samples.

Results

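The genes described here encode the aminoacyl-tRNA synthetases of the budding yeast Saccharomyces cerevisiae, the enzymes that join each amino acid to its transfer RNA. They were the spots whose platform gene symbol was one of 32 synthetase symbols, and all 32 were found, with 2 spots each, among 5539 named genes. Of these, 19 encode enzymes that work in the cytosol and 13 encode enzymes that work in mitochondria.

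A synthetase activates an amino acid with ATP and transfers it to the matching tRNA, which the ribosome then uses. The enzymes fall into class I and class II, which differ in the fold of the catalytic domain. Yeast mitochondria translate a small genome of their own and use mostly separate, nuclear-encoded synthetases, although some genes (ALA1, GRS1, HTS1 and VAS1) give both a cytosolic and a mitochondrial form. Uncharged tRNA, which accumulates when charging falls short, activates the kinase Gcn2, a regulator of translation in yeast.

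Wild-type cells were treated with 1.0 mM As(III), that is arsenite, in which arsenic is trivalent and toxic to the cell, for 15 min (3 arrays), 30 min (3 arrays), 1 h (6 arrays) or 18 h (3 arrays). Total RNA of treated cells and of untreated wild-type cells shared each 2-colour slide, so every array carried its own untreated measurement and no array served 2 time points. Treated RNA was labelled with Cy5 on 12 arrays and with Cy3 on 1 h replicates 1, 3 and 6. The labels describe growth, treatment and extraction by pointing to a publication, and they do not say which strain was used, whether replicates came from separate cultures or when the untreated cells were harvested.

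All values are log2 ratios with treated cells on top and untreated cells below, averaged over the spots of a gene after the median gene of the array was set to 0. That direction is likely, from the dyes and the titles, and is not stated outright. Such a value is a difference between conditions and not a level, so genes can be compared in how far they moved and not in abundance. A shift of most transcripts together would not be seen. Fitted values carry their limma standard error. At 1 h a fitted value is the mean of 6 arrays, and at the other times it is the mean of 3 arrays less a dye effect estimated at 1 h. A gene was called at a limma adjusted p under 0.05, after Benjamini-Hochberg adjustment over all 5539 genes of a comparison.

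Several arrays stood apart. Arrays of 15 min correlated with each other at r = -0.06 to 0.23 across genes, against 0.72 to 0.89 for pairs at 1 h. At 30 min replicate 1 had r = 0.41 and 0.43 with replicates 2 and 3, which had 0.93 with each other. At 18 h replicate 3 had r = 0.45 and 0.55 with replicates 1 and 2, which had 0.73 with each other. On 10 arrays every value was log2 of 1 whole number over another. The other 5 were 15 min replicate 1 and 30 min replicate 1, whose making is unknown, and the 3 arrays of 1 h with treated RNA in Cy3. Minus signs on zeros make it likely that the signs of these 3 were turned before deposit. How their values were made is not known either. Bright spots ran lower than dim ones most steeply on 15 min replicate 2 and on 30 min replicates 2 and 3: the brightest eighth of genes lay below the dimmest eighth by a log2 difference of -1.84, -1.92 and -1.83. On the other arrays this difference ran from -1.70 to 0.73. Brightness here was a lower bound taken from the whole numbers of the 10 arrays, and not a measured intensity. Spots of the cytosolic synthetases were brighter than most, with a median log2 brightness of 1.17 relative to the median spot (18 of 19 above it), against -0.18 for the mitochondrial ones (2 of 13 above it). Counts of synthetases are therefore also given after the trend with brightness had been removed from every array. Shares of all genes belong to the fit without this step, and none is given for any other setting of the fit.

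After 1 h in arsenite, transcripts of most cytosolic synthetases were lower than in untreated cells, while no mitochondrial synthetase was called. Of the 19 cytosolic genes, 16 fell and 1 rose, where 22.6% of all genes fell and 17.1% rose at this time. The median of the 19 was -1.46, against 0.10 for the 13 mitochondrial genes and 0.02 for all genes. The fall was more than 2-fold for 14 cytosolic genes. Of the 13 mitochondrial genes, limma called 0 and 0 had an unadjusted p under 0.05, where 2628 of all 5539 genes did.

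**Figure D1:**
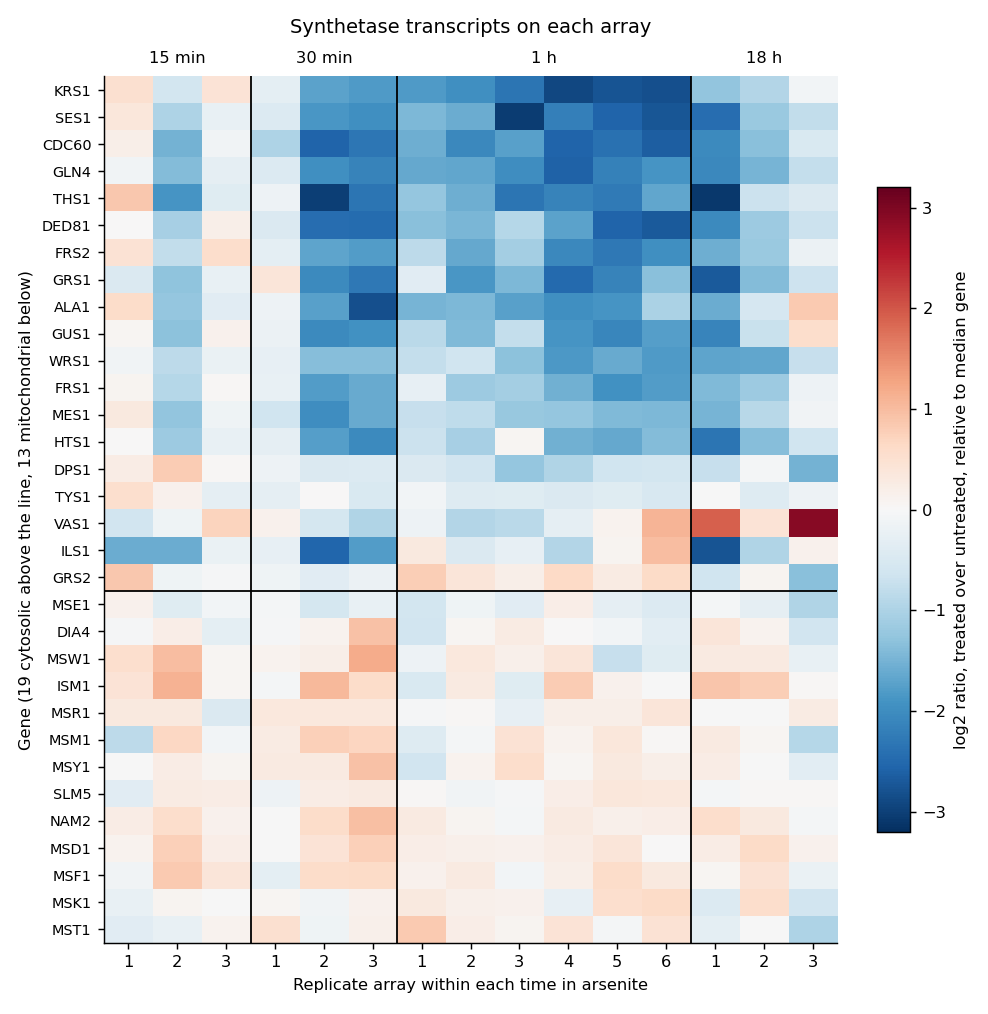
Log2 ratio (treated over untreated, median gene at 0) for each of the 32 synthetase genes (rows, 19 cytosolic above the line and 13 mitochondrial below, each ordered by the fitted value at 1 h) on each of the 15 arrays (columns, grouped by time). Most cytosolic rows are blue on the 6 arrays of 1 h and on 30 min replicates 2 and 3, and the mitochondrial rows lie between -0.998 and 1.19 on every array.

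Among the class II enzymes KRS1, the lysyl-tRNA synthetase, had log2 ratios of -2.92 at the lowest, -2.55 at the median and -1.82 at the highest of the 6 arrays at 1 h. All 6 lay below 0, and replicates 4 to 6 were the lowest. The fitted value was -2.44 ± 0.24, a 5.42-fold lower ratio (limma adjusted p = 8.3e-07), the furthest from 0 of the 32 genes. SES1, which charges serine, ran between -3.03 and -1.43 with a median of -2.38, and its fitted value was -2.25 ± 0.27 (adjusted p = 8.7e-06, limma).

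THS1, the threonyl-tRNA synthetase, lay between -2.33 and -1.24 on the 6 arrays with a median of -1.90, and DED81, the asparaginyl-tRNA synthetase, between -2.68 and -0.90 with a median of -1.59. Both were below 0 on every array, but DED81 spread more widely, with its highest value on replicate 3 and its lowest on replicate 6. The fitted values were -1.86 ± 0.40 for THS1 (limma adjusted p = 0.00137) and -1.78 ± 0.30 for DED81 (limma adjusted p = 0.000167). DPS1, which charges aspartate, fell less, with a fitted value of -0.75 ± 0.18 (limma adjusted p = 0.00348), and was not called from the arrays with treated RNA in Cy5 alone (-0.74, limma adjusted p = 0.0572).

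The cytosolic phenylalanyl-tRNA synthetase is built from 2 kinds of subunit, and FRS1 and FRS2 encode one each. FRS2 had log2 ratios from -2.28 to -0.84 with a median of -1.80 at 1 h, and FRS1 from -1.94 to -0.26 with a median of -1.35. Both were below 0 on all 6 arrays, and for both the array nearest to 0 was replicate 1. The fitted values were -1.64 ± 0.25 for FRS2 (limma adjusted p = 6.7e-05) and -1.30 ± 0.25 for FRS1 (limma adjusted p = 0.000555). Across the 15 arrays, which share their time points and array-wide trends, the ratios of the subunit genes had r = 0.95.

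Of the class I enzymes, CDC60, the leucyl-tRNA synthetase, lay between -2.63 and -1.56 at 1 h with a median of -2.23. GLN4, the glutaminyl-tRNA synthetase, lay between -2.58 and -1.63 with a median of -1.93. Every array of both genes was well below 0, with replicate 1 the highest for each. The fitted values were -2.16 ± 0.26 for CDC60 (limma adjusted p = 8.4e-06) and -1.98 ± 0.24 for GLN4 (limma adjusted p = 7.5e-06). WRS1, which charges tryptophan, ran from -1.83 to -0.63 with a median of -1.46 and also fell (-1.32 ± 0.21, limma adjusted p = 0.000134).

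MES1, the methionyl-tRNA synthetase, and GUS1, the glutamyl-tRNA synthetase, bind a common cofactor protein, Arc1, in yeast. MES1 ran from -1.43 to -0.73 on the 6 arrays with a median of -1.23, all below 0. Both genes fell at 1 h, by 1.14 ± 0.23 for MES1 and by 1.46 ± 0.31 for GUS1 on the log2 scale (limma adjusted p = 0.000876 and 0.0015). ARC1 itself, listed among the charging partners and not a synthetase, had a fitted value of -1.21 ± 0.28 (limma adjusted p = 0.00233). After the trend with brightness was removed it was -0.42 (limma adjusted p = 0.0537), so that the ARC1 call was lost.

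Class II held 10 genes that fell and 1 that rose among 11, with a median of -1.60, and class I held 6 that fell among 8, with a median of -1.23. This division was made after the values had been seen, and no difference between the classes was tested. TYS1, the tyrosyl-tRNA synthetase of class I, was the smallest called fall, at -0.38 ± 0.14 (limma adjusted p = 0.0447). Its arrays ran from -0.52 to -0.08, all below 0. The TYS1 call was kept in 10 of 25 alternatives. It was lost on leaving out any one of the 1 h arrays 2 to 6 (limma adjusted p = 0.0896 to 0.147). So it was without any 30 min array or 18 h replicate 2 (0.0506 to 0.0555), and with the trend with brightness removed (-0.20, 0.283). Others that lost it were no centring (0.082), equal spread (0.0696) and the Cy5 arrays alone (0.169). The 12 arrays numbered 1 to 3 lost it too, with (0.553) and without (0.519) the replicate number as a block.

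ILS1, the isoleucyl-tRNA synthetase, and VAS1, the valyl-tRNA synthetase, were the class I genes not called at 1 h. ILS1 had log2 ratios of 0.30, -0.47, -0.26, -0.95, 0.08 and 0.98 on replicates 1 to 6. Its arrays fell on both sides of 0, 3 below and 3 above, and the fitted value was -0.05 ± 0.34. VAS1 had -0.16, -0.95, -0.87, -0.28, 0.12 and 1.09, with 4 below 0, and a fitted value of -0.18 ± 0.30. On both genes replicate 6 was the highest array.

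Of the 4 genes that supply both compartments, GRS1, ALA1 and HTS1 fell at 1 h and VAS1 was not called. GRS1, the glycyl-tRNA synthetase, ran from -2.49 to -0.36 with a median of -1.65, all 6 arrays below 0 and replicate 1 the nearest to it. Fitted values were -1.60 ± 0.31 for GRS1 (limma adjusted p = 0.00071), -1.59 ± 0.33 for ALA1, which charges alanine (limma adjusted p = 0.000992), and -1.04 ± 0.26 for HTS1, which charges histidine (limma adjusted p = 0.00497). The array measures the gene's transcripts together and does not separate the forms.

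GRS2, a paralog of GRS1, was the 1 synthetase gene of the 32 that rose at 1 h relative to the median gene. Its 6 arrays gave 0.80, 0.38, 0.19, 0.64, 0.27 and 0.60, all above 0, while those of GRS1 were all below 0. The fitted value was 0.48 ± 0.18 (limma adjusted p = 0.0493), and -0.07 where arrays were left uncentred. Over all 15 arrays GRS1 and GRS2 had r = 0.06. The GRS2 call was lost in 16 of 25 alternatives: leaving out any 1 h array but replicate 3, for example, gave a limma adjusted p of 0.0781 to 0.146, and leaving out 15 min replicate 3, any 30 min array or 18 h replicate 1 gave 0.0544 to 0.0621. Spotted probes can bind both copies, so the values of GRS1 and GRS2 are uncertain as to the copy.

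**Figure D2:**
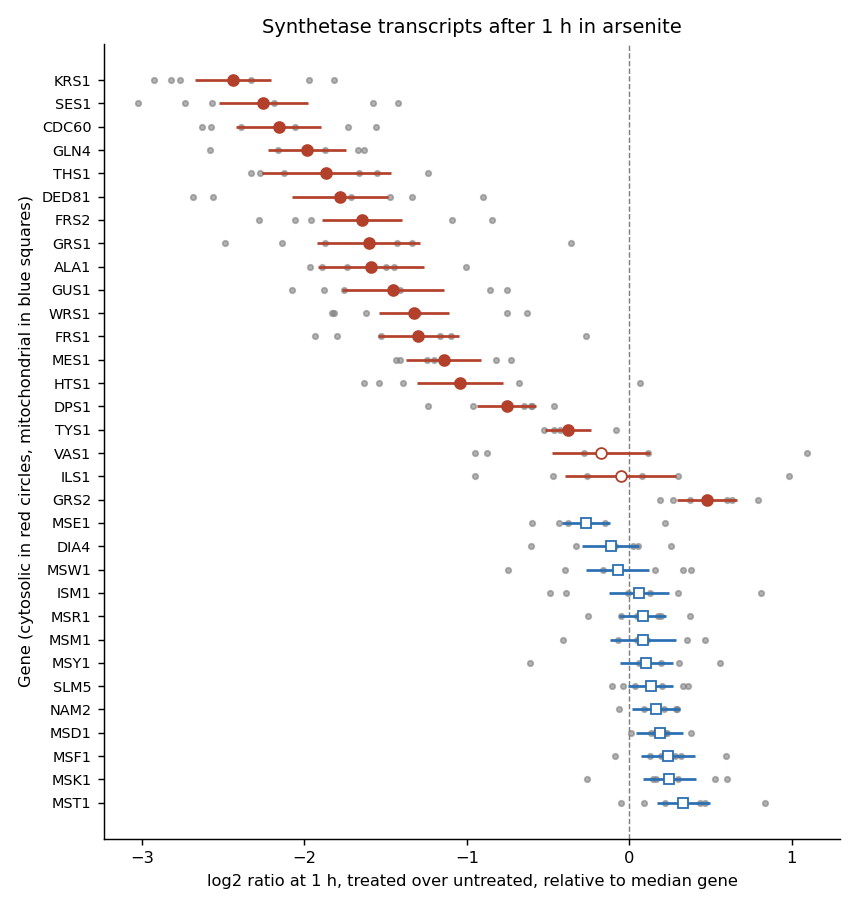
Log2 ratio after 1 h, treated over untreated and relative to the median gene (x axis), for each synthetase gene (y axis). Grey points are the 6 arrays, large symbols the fitted value with its limma standard error, red circles cytosolic and blue squares mitochondrial genes, filled where called. The 16 cytosolic genes that fell run from -2.44 to -0.38, and the mitochondrial genes sit between -0.27 and 0.33 with no filled symbol.

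The 13 mitochondrial enzymes stayed near the median gene at 1 h, with fitted values from -0.27 to 0.33 and standard errors of 0.14 to 0.20. MST1, the mitochondrial threonyl-tRNA synthetase, was the furthest from 0 at 0.33 ± 0.16 (limma adjusted p = 0.118), with 1 of 6 arrays below 0. MSE1, which attaches glutamate in mitochondria, was the lowest at -0.27 ± 0.15 (limma adjusted p = 0.172). Of the others, NAM2, the mitochondrial leucyl-tRNA synthetase that is also needed to splice mitochondrial introns, was at 0.16 ± 0.15. MSR1, which charges arginine, was at 0.08 ± 0.14, and MSY1, which charges tyrosine, at 0.10 ± 0.16. MSD1, the aspartyl-tRNA synthetase of mitochondria, was the single gene of the 13 that lay above 0 on all 6 arrays, from 0.01 to 0.38, and its fitted value was 0.19 ± 0.14 (limma adjusted p = 0.326).

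Over the whole series the mitochondrial genes moved little from array to array. Of their 195 values on single arrays, 3 (1.54%) were beyond 2-fold from the median gene, against 143 of 285 (50.2%) for the cytosolic genes and 21.1% for all genes. Dimness and compartment cannot be told apart in these lists, since the mitochondrial genes were also the dimmer ones. With the trend with brightness removed, 15 cytosolic genes fell and 1 rose at 1 h, and the medians were -1.06 for the cytosolic and -0.03 for the mitochondrial genes. The share of all genes called in that fit is not given, so these counts are not set against it.

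On every array of 1 h the median of the cytosolic genes lay below that of the mitochondrial genes. The cytosolic medians were -0.75, -1.41, -1.20, -1.83, -1.94 and -1.66 on replicates 1 to 6, and the mitochondrial medians were -0.05, 0.11, 0.09, 0.20, 0.20 and 0.20. The groups did not overlap: the highest cytosolic median, on replicate 1, was still below the lowest mitochondrial one. The difference averaged -1.59 ± 0.54 (SD, n = 6), and -1.11 with the trend with brightness removed. No test was made of these medians, because the genes were chosen with results of these arrays known.

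Comparing enzymes for the same amino acid on the same array removes whatever an array shifts for both genes alike. Of 13 such pairs at 1 h, the cytosolic gene was lower than its mitochondrial counterpart on all 6 arrays in 11. Each of these reached the smallest p that 6 arrays allow in an exact two-sided sign-flip permutation test (p = 0.03125, 0.0369 after Benjamini-Hochberg adjustment over the 13 pairs). These pairs too were set with results of the same arrays known, so the p-values are no independent support. The widest gap was for lysine, where KRS1 minus MSK1 averaged -2.68 ± 0.56 (SD, n = 6). Leucine followed (CDC60 minus NAM2, -2.32 ± 0.51), then threonine (THS1 minus MST1, -2.20 ± 0.28) and serine (SES1 minus DIA4, -2.14 ± 0.84). With these spreads, the order of those 4 pairs is not settled by 6 arrays.

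The narrowest of the 11 was aspartate, where DPS1 minus MSD1 averaged -0.94 ± 0.30. Phenylalanine gave -1.88 ± 0.76 for FRS2 and -1.54 ± 0.77 for FRS1 against MSF1, which is a single-chain enzyme in mitochondria and the shared member of both pairs. Tyrosine was not called, with TYS1 minus MSY1 at -0.48 ± 0.52 and lower on 5 of 6 arrays (exact permutation p = 0.09375, adjusted 0.102). Isoleucine was not called either, with ILS1 minus ISM1 at -0.11 ± 1.02 and lower on 3 of 6 arrays (exact permutation p = 0.906, adjusted 0.906). With the trend with brightness removed, 10 of the 13 pairs passed, and glutamate (GUS1 minus MSE1) did not: it was -0.73 then, against -1.19 before.

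**Figure D3:**
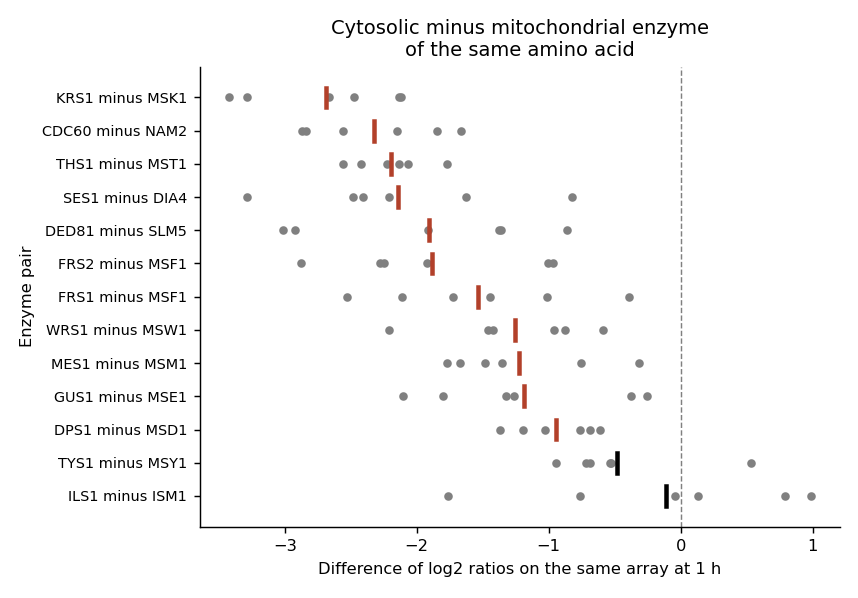
Cytosolic minus mitochondrial log2 ratio for 13 enzyme pairs that charge the same amino acid (y axis), with 1 grey point for each of the 6 arrays at 1 h and a bar at their mean (red where the adjusted exact p was under 0.05, black otherwise). In 11 pairs every point lies left of 0, with means from -2.68 to -0.94.

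Earlier and later arrays gave fewer calls. After 15 min no synthetase was called, where 0.668% of all genes rose and 0.0181% fell. An unadjusted limma p under 0.05 was reached by 0 of the 32 and by 539 of all 5539 genes. With the trend with brightness removed 0 were called as well. The median was -0.10 for the cytosolic and 0.04 for the mitochondrial genes. The cytosolic medians of the 3 arrays were 0.19, -1.06 and -0.14, so that replicate 2, an array with a steep trend against brightness, stood below the others. The cytosolic minus mitochondrial difference averaged -0.46 ± 0.82 (SD, n = 3), and 0.00 without replicate 2.

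After 30 min all 19 cytosolic genes had a fitted value below 0, with a median of -1.06, and 2 fell, where 4.48% of all genes fell. Of the 19, 12 had an unadjusted p under 0.05 (limma), as had 1269 of all 5539 genes. CDC60 was at -0.98, -2.56 and -2.32 on the 3 arrays, with a fitted value of -1.77 ± 0.45 (limma adjusted p = 0.0295). MES1 was at -0.64, -1.99 and -1.62, with a fitted value of -1.40 ± 0.40 (limma adjusted p = 0.0433). For both genes every array was below 0 and replicate 1 was the nearest to it. Leaving out 30 min replicate 2 or 3 or 1 h replicate 2, 3 or 6 ended the CDC60 call (limma adjusted p = 0.0512 to 0.192). The MES1 call ended without any one of these, 1 h replicates 4 and 5, 15 min replicate 3 or 18 h replicate 2 (limma adjusted p = 0.0544 to 0.267).

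Replicate 1 lay above replicates 2 and 3 in 18 of the 19 cytosolic genes at 30 min. The 3 cytosolic medians were -0.27, -1.78 and -1.82, and the mitochondrial ones -0.02, 0.28 and 0.62. Without replicate 1 limma called 13 cytosolic genes lower, and without replicate 2 or replicate 3 it called 0. Without 15 min replicate 2, which enters through the shared spread, it called 5. The share of all genes called is not given for these fits. Replicates 2 and 3 are also those on which bright spots ran low, and with that trend removed 5 genes were called and the cytosolic median was -0.71. Of the 13 mitochondrial genes 0 were called at 30 min, where 3.27% of all genes rose. An unadjusted p under 0.05 (limma) was reached by 0 of the 13, against 1269 of all 5539 genes. The median of the 13 was 0.28.

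**Figure D4:**
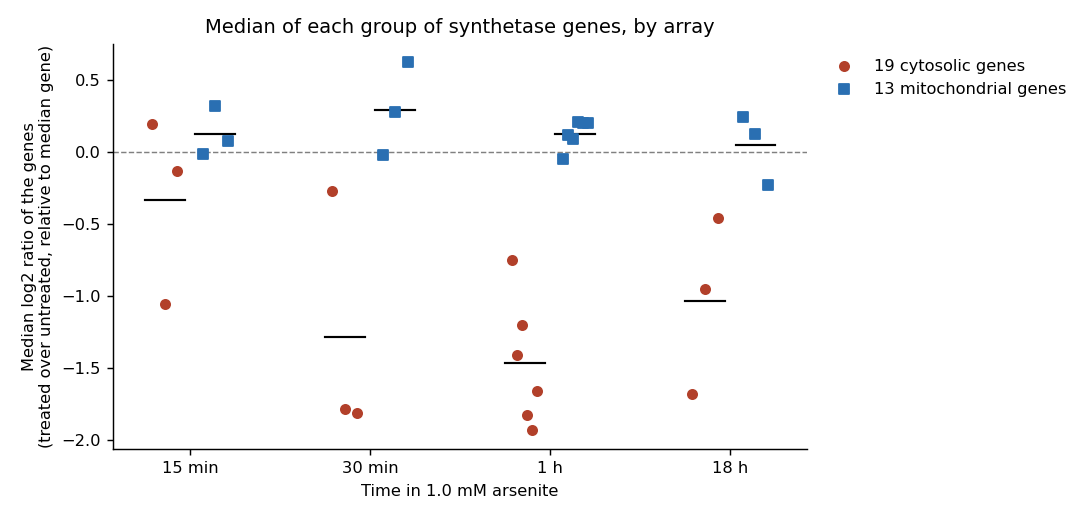
Median log2 ratio of the 19 cytosolic (red circles) and 13 mitochondrial (blue squares) synthetase genes on each array, treated over untreated and relative to the median gene (y axis), by time in arsenite (x axis), with a bar at the mean over arrays. The medians of the groups do not overlap at 30 min, 1 h or 18 h and overlap at 15 min, where the cytosolic medians run from -1.06 to 0.19.

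After 18 h, 18 of 19 cytosolic genes still had a fitted value below 0, with a median of -0.80 (0.19 where arrays were left uncentred), but 2 fell and 1 rose, where 3.16% of all genes fell and 5.33% rose. The genes called lower numbered 5 with the trend with brightness removed and 8 without the dye term, which is estimated at 1 h alone. SES1 was at -2.43, -1.19 and -0.80 on replicates 1 to 3, with a fitted value of -1.61 ± 0.48 (limma adjusted p = 0.0472). WRS1 was at -1.68, -1.66 and -0.75, with a fitted value of -1.33 ± 0.37 (limma adjusted p = 0.0386). Both genes were below 0 on all 3 arrays and highest on replicate 3. Leaving out any one of the 18 h arrays ended the SES1 call (limma adjusted p = 0.217, 0.0936 and 0.0544 without replicates 1, 2 and 3), and leaving out 18 h replicate 1 or 2 ended that of WRS1 (0.139 and 0.148). So did leaving out 1 h replicate 2, 3 or 6 for both genes, and for SES1 also 1 h replicate 4, 15 min replicate 3 or 30 min replicate 2 or 3 (limma adjusted p = 0.0527 to 0.105).

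VAS1 went the other way at 18 h. Its ratios were 1.92, 0.43 and 2.91, all above 0 and very unequal, and the fitted value was 1.95 ± 0.52, a 3.86-fold higher ratio (limma adjusted p = 0.0319). No other synthetase rose at 18 h. Without 18 h replicate 1 the VAS1 value was 1.86 (limma adjusted p = 0.102), and without replicate 3 it was 1.37 (limma adjusted p = 0.175). The call also ended without 1 h replicate 2, 4 or 6 (limma adjusted p = 0.0526 to 0.0755). The difference of VAS1 between 18 h and 1 h was 2.12 ± 0.60 and was not called (limma adjusted p = 0.0983).

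The cytosolic medians of the 18 h arrays were -1.68, -0.96 and -0.46, and the mitochondrial ones 0.24, 0.12 and -0.23. Of the 13 mitochondrial genes limma called 0, and 1 had an unadjusted p under 0.05 (MSE1, -0.63 ± 0.26, adjusted p = 0.153). Of all 5539 genes, 1233 had an unadjusted p under 0.05 at 18 h. The median of the 13 was -0.02. The cytosolic minus mitochondrial difference averaged -1.58 ± 1.17 (SD, n = 3) at 30 min, -1.59 ± 0.54 (n = 6) at 1 h and -1.08 ± 0.84 (n = 3) at 18 h, and the spread between arrays was too wide to order the 3 times.

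The genes called at 30 min or 18 h are completed here with their arrays of the other times. CDC60 was at 0.19, -1.52 and -0.11 at 15 min and at -2.03, -1.35 and -0.49 at 18 h. MES1 was at 0.30, -1.27 and -0.14 at 15 min and at -1.49, -0.88 and -0.12 at 18 h. Both thus had their lowest 15 min value on replicate 2 and their lowest 18 h value on replicate 1. SES1 was at 0.36, -0.996 and -0.25 at 15 min and at -0.44, -1.87 and -1.96 at 30 min, and WRS1 was at -0.12, -0.83 and -0.22 at 15 min and at -0.27, -1.35 and -1.37 at 30 min. VAS1 was at -0.62, -0.13 and 0.72 at 15 min and at 0.14, -0.55 and -0.95 at 30 min, on both sides of 0 each time.

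Changes between time points were called for 2 synthetases. From 15 min to 1 h, KRS1 and FRS2 fell, where 3.12% of all genes fell and 0.758% rose. KRS1 was no higher than -1.82 on the 6 arrays of 1 h, against 0.52, -0.58 and 0.45 on those of 15 min, so the times did not overlap. The fitted difference, 1 h minus 15 min, was -2.68 ± 0.47 for KRS1 (limma adjusted p = 0.00644). FRS2 was no higher than -0.84 at 1 h, against 0.47, -0.80 and 0.57 at 15 min, which came close without overlapping once spots were averaged. Single spots did overlap: those of 1 h replicate 3 were at -1.58 and -0.60, those of 15 min replicate 2 at -0.78 and -0.82. The FRS2 difference was -2.07 ± 0.49 (limma adjusted p = 0.0272).

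The KRS1 difference kept its call on leaving out any one array. Without 15 min replicate 2 or 30 min replicate 1, 5 genes were called. The FRS2 call was lost without 15 min replicate 1 or 3 (limma adjusted p = 0.122 and 0.125) and without 1 h replicate 4 or 5 (0.115 and 0.126). At 30 min KRS1 was at -0.30, -1.72 and -1.82, and FRS2 at -0.31, -1.69 and -1.80. At 18 h KRS1 was at -1.25, -0.94 and -0.10, and FRS2 at -1.56, -1.18 and -0.19. The fitted values of KRS1 were -1.16 ± 0.41 at 30 min and -0.65 ± 0.41 at 18 h, and neither was called (limma adjusted p = 0.0922 and 0.389). From 15 to 30 min (4 cytosolic genes lower without 30 min replicate 1) and from 30 min to 1 h limma called 0 synthetases and 0 of all genes (0%). From 1 h to 18 h it called 0 synthetases, where 1.05% of all genes rose and 0.361% fell.

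**Figure D5:**
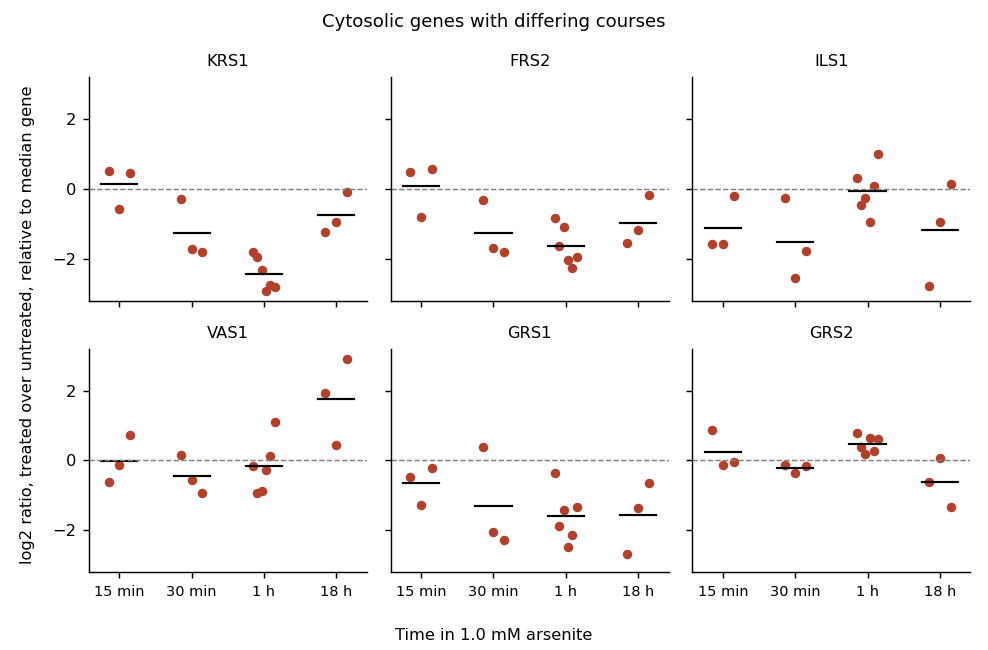
Log2 ratio, treated over untreated with the median gene at 0 (y axis), against time in arsenite (x axis) for 6 cytosolic synthetase genes, chosen after their values were seen to show unlike courses. Points are single arrays (3, 3, 6 and 3 in order of time) and bars their means. KRS1 and FRS2 lie lowest at 1 h, VAS1 lies highest at 18 h, ILS1 spans 0 at 1 h, and GRS1 and GRS2 separate at 1 h.

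The cytosolic genes varied together from array to array, apart from a few. The ratio of each was set against the mean of the other 18 over the 15 arrays, which share time points, brightness trends and slides. GLN4 and CDC60 had r = 0.96 and 0.95, and GUS1 and MES1 0.93 each. The lowest were GRS2 (-0.08), VAS1 (0.16), ILS1 (0.21), DPS1 (0.28) and TYS1 (0.43). The median correlation over pairs was 0.71 among cytosolic genes, 0.30 among mitochondrial genes and -0.30 between the groups.

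Outside the synthetase symbols, the genes whose ratios were most like the cytosolic mean over the 15 arrays were YDR341C (r = 0.98), RPL15B (0.97), VMA8 (0.96), SUI3 (0.96) and MIL1 (0.96). YDR341C encodes the cytosolic arginyl-tRNA synthetase under its systematic name, RPL15B a protein of the large ribosomal subunit, SUI3 a subunit of initiation factor eIF2 and VMA8 a subunit of the vacuolar proton pump. Those most like the mitochondrial mean were IRC18 (0.93), MATALPHA1 (0.93), LUC7 (0.92), YPL113C (0.92) and DNF3 (0.92).

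The charging partners form a list of 12 genes: synthetases known by other names, cofactors, and enzymes that edit or correct charged tRNA. At 1 h 4 of the 12 fell and 0 rose, where 22.6% of all genes fell and 17.1% rose. The list was not tested against those shares. YHR020W, the prolyl-tRNA synthetase, was at -2.48 ± 0.37 (limma adjusted p = 5.8e-05), YDR341C at -2.11 ± 0.30 (limma adjusted p = 3.4e-05), and CRS1, which charges cysteine, at -2.06 ± 0.27 (limma adjusted p = 1.8e-05). ARC1 was the fourth. At 30 min YHR020W and CRS1 fell (-2.27 ± 0.64 and -1.76 ± 0.47, limma adjusted p = 0.0402 and 0.0334), where 4.48% of all genes fell and 3.27% rose. At 15 min 0 of the 12 were called, where 0.0181% of all genes fell and 0.668% rose. At 18 h 0 were called, where 3.16% of all genes fell and 5.33% rose. With the trend with brightness removed, 3 fell at 30 min, 4 at 1 h and 4 at 18 h.

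PET112, HER2, GTF1, FMT1 and AIM10 work in mitochondria, were picked after their values were seen, and were not called at 1 h. They are not given as a full list of partners with a mitochondrial form. PET112, HER2 and GTF1 encode the amidotransferase that makes glutaminyl-tRNA in mitochondria from the glutamyl form. Their fitted values were 0.37 ± 0.16, 0.18 ± 0.25 and -0.22 ± 0.15. With the trend with brightness removed GTF1 fell, at -0.34 (limma adjusted p = 0.0236). FMT1, which formylates the initiator tRNA, was at 0.39 ± 0.19. AIM10, the mitochondrial prolyl-tRNA synthetase, was at -0.32 ± 0.14 (limma adjusted p = 0.0808), with 5 of 6 arrays below 0, and lay below 0 on all arrays of the other times. DED81 and YHR020W are next to each other in the RefSeq annotation of assembly R64, and their ratios had r = 0.80 over the 15 arrays.

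A list of 31 genes for tRNA maturation, modification and export held 10 that fell and 1 that rose at 1 h, with a median of -0.19. Against the 22.6% of all genes that fell and the 17.1% that rose this list was not tested either, and with the trend with brightness removed 12 fell and 2 rose. The largest falls were in TRM82 (-1.88 ± 0.30, limma adjusted p = 0.000103) and NCL1 (-1.81 ± 0.31, limma adjusted p = 0.000195). TRM82, with TRM8 (-1.04 ± 0.21), methylates guanine in tRNA, and NCL1 methylates cytosine. PUS1, a pseudouridine synthase, TRM1, a guanine methyltransferase, and GCD10, a subunit of an adenine methyltransferase, fell by 1.26, 1.27 and 1.25 on the log2 scale. TRZ1, the nuclease that trims the 3' end of precursor tRNA, fell by 1.05.

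RPM2, a protein subunit of mitochondrial RNase P, rose at 1 h (0.76 ± 0.22, limma adjusted p = 0.0113). At 30 min 1 of the 31 fell, TRM1 (-1.52 ± 0.39, limma adjusted p = 0.0301), where 4.48% of all genes fell, and 4 did with the trend with brightness removed. At 15 min and at 18 h limma called 0 of the 31. An unadjusted p under 0.05 was reached by 1 and 4 of them, against 539 and 1233 of all 5539 genes. Of all genes 0.668% rose and 0.0181% fell at 15 min, and 5.33% rose and 3.16% fell at 18 h. With the trend with brightness removed, 0 were called at 15 min, and 1 fell at 18 h.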

How the data were processed

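The authors deposited 1 log2 ratio per spot for each of 15 two-colour spotted arrays, treated over untreated, with no missing value among 13056 spots. No aligner, scanner setting or normalisation is given in the sources used here, and signal over background is not known. The log2 scale was read from the deposited values: on 10 arrays every value was log2 of 1 whole number over another. For the other 5 (15 min replicate 1, 30 min replicate 1 and 1 h replicates 1, 3 and 6) it was taken from those 10. The direction is likely treated over untreated, from the dyes, the order of conditions in the titles and minus signs on zeros of the 3 arrays with treated RNA in Cy3. Groups, replicate numbers and dyes came per the labels. They do not say that replicates were separate cultures. A p-value here therefore reflects only how much these arrays vary, and that variation may be technical.

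Of the spots, 11138 had 1 gene name in the platform annotation and 1918 had none and were left out. Spots of a gene were averaged and each array was centred on its gene median. Before centring, these medians averaged 0.24, -0.34, -0.55 and 0.46 at 15 min, 30 min, 1 h and 18 h. The fit was limma 3.58.1 (lmFit and eBayes, R 4.3.3) on the 15 arrays together, with terms for each time point and for the dye of every gene (10 residual degrees of freedom, prior 5.41), two-sided, with Benjamini-Hochberg adjustment over 5539 genes within each of 8 comparisons: 4 times against untreated and 4 between times. Enzyme pairs were compared with an exact sign-flip permutation test over the 6 arrays at 1 h. The other times hold 3 arrays, where no p under 0.25 is possible. The number of arrays limits the precision.

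Brightness was taken from the whole-number ratios of 10 arrays. Any common factor of the numbers is lost in a ratio, so this is a lower bound on the intensities. Its trend was removed by loess (span 0.4) as an alternative. Other alternatives were no dye term, no centring, equal spread, the first spot, other sets of arrays, a replicate block, and leaving out each array. A fit of the 12 arrays numbered 1 to 3 without a block was added after seeing the data. Deviations of same-numbered arrays had r = -0.55 to 0.64. Those of arrays with unlike numbers were not computed for comparison, so these values do not settle whether the numbers pair the samples. Number 1 arrays of 15 min, 30 min and 1 h had r = 0.44 to 0.58 with each other, and -0.55 to -0.42 with that of 18 h. The members and lists were chosen with earlier results of these data known. Full array values are given for the 8 cytosolic and 4 mitochondrial genes with the largest called change at 1 h (no mitochondrial gene was called) and for members called at another time or between times. Of the other lists at most 8 genes called at any time are named, and the 5 genes most like each group's mean. No probe or gene sequences were used here.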

Additional observations from a re-analysis of the deposited data

Results flagged for a closer look

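TYS1, the cytosolic tyrosyl-tRNA synthetase, had 1 array far from the other 5 at 1 h: replicate 1 was at -0.0797, while the others lay between -0.52 and -0.38. Of the 34 sets of replicate values examined for such a sample this was the only one, and chance marks about 1 in 20.

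The values at 1 h and at 15 min differed for KRS1 (1 h minus 15 min, -2.68, limma adjusted p = 0.00644) and for FRS2 (-2.07, limma adjusted p = 0.0272), which encode the lysyl-tRNA synthetase and a subunit of the phenylalanyl-tRNA synthetase.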

How the results depend on the processing

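Of 3248 alternative values of single synthetase genes, 3059 kept their side of the threshold, 115 lost a call and 73 gained one. Direction was compared only where a gene was called. Values not called in either setting could turn sign, as ALA1 did at 15 min (-0.62 to 0.29 on leaving out 1 array in turn). The 1 called value that turned sign was GRS2 at 1 h, at -0.0721 without centring (limma adjusted p = 0.914). The calls of CDC60, GLN4, KRS1 and SES1 at 1 h held in all 25 alternatives run, and 15 of the 17 calls at 1 h held on leaving out any one array, TYS1 and GRS2 being the exceptions. The causes of the changes below were not tested, except that fewer arrays were fitted where arrays were left out. Shares of all genes called are not given for any of these settings.

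Cytosolic genes called lower at 30 min numbered 14 without the dye term, 0 without centring, 0 with equal spread, 5 with the brightness trend removed, 0 from that time point alone, 10 from the Cy5 arrays alone and 13 without 15 min and 30 min replicate 1, against 2 as reported. At 18 h those called lower numbered 8, 0, 1, 5, 7 and 6 under the first 6 of these settings, and the gene called higher was lost with equal spread (0). The gene called higher at 1 h was lost (0) without centring, with equal spread, with the first spot of each gene and from the Cy5 arrays alone, where the DPS1 and TYS1 falls were lost too. The TYS1 fall was also lost without centring, with equal spread and with the brightness trend removed. From 15 min to 1 h the genes called lower numbered 6 without the dye term, 12 without centring, 6 with equal spread and 5 with the brightness trend removed. From 1 h to 18 h, 2 genes were called higher and 1 lower without the dye term, 10 higher without centring, 1 higher with the brightness trend removed and 1 higher without 15 min and 30 min replicate 1. Without centring the cytosolic and mitochondrial medians were 0.68 and 0.82 at 15 min, -2.01 and -0.45 at 1 h, and 0.19 and 0.98 at 18 h. The mitochondrial median was 0.24 at 15 min without 15 min and 30 min replicate 1, and -0.0292 at 1 h with the brightness trend removed.

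With the replicate number as a block, over the 12 arrays numbered 1 to 3, the genes called lower were 0 at 30 min, 4 at 1 h (median -0.98), 0 at 18 h and 0 from 15 min to 1 h, and 0 were called higher at 1 h or 18 h. The same 12 arrays with no replicate block gave 0, 5, 0 and 0 lower and 0 higher. Whether the numbers pair the samples is not settled.

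Leaving out 1 array in turn, cytosolic genes called lower numbered 0 to 13 at 30 min, 15 to 16 at 1 h, 0 to 3 at 18 h, 0 to 4 from 15 to 30 min and 1 to 5 from 15 min to 1 h. Those called higher numbered 0 to 1 at 1 h, at 18 h and from 1 h to 18 h. The cytosolic median ranged over -0.30 to 0.24 at 15 min, -1.65 to -0.78 at 30 min, -1.55 to -1.30 at 1 h and -1.17 to -0.46 at 18 h. The mitochondrial median ranged over -0.0248 to 0.235, 0.14 to 0.46, 0.08 to 0.15 and -0.10 to 0.13. The cytosolic minus mitochondrial difference ranged over -0.79 to 0.0009, -2.25 to -1.16, -1.77 to -1.48 and -1.50 to -0.66, turning sign at 15 min without replicate 2. In 11 to 12 of 13 enzyme pairs the cytosolic gene was lower on every array left. With 5 arrays no pair can go below p = 0.0625, so that exact test was not run there.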
